A study of Mus musculus with 55 samples.

Results

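Red blood cell transcripts were examined in bulk RNA of the ventral dentate gyrus, the input region of the hippocampus, after chronic social defeat stress (CSDS). The set comprised 10 genes of the 45318 listed in the count tables, namely the adult globin genes Hba-a1, Hba-a2, Hbb-bs and Hbb-bt, the heme genes Alas2, Fech and Slc25a37, and Slc4a1, Tent5c and Bpgm. All 10 were found by symbol and all 10 passed the filter on low counts, which kept 18283 genes. They were chosen by name with their levels in these 6 groups already known, so their levels and fold changes are given as a description, with no test.

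The tissue was from C57BL/6J males kept from weaning age in standard housing (SH) or in an enriched environment (EE), in larger groups with running wheels, tunnels and objects. Within each housing, mice were left unstressed as controls or were defeated repeatedly by CD-1 aggressors and then classified as resilient (RES) or susceptible (SUS) from a social interaction test. There were 10 SH control, 7 SH RES, 10 SH SUS, 9 EE control, 9 EE RES and 9 EE SUS mice. RNA of single mice was extracted from tissue punches of frozen brains, and the methods describe no perfusion, so blood within vessels may be part of each punch. In bulk tissue, fewer red cells and less RNA per red cell cannot be told apart.

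Each of the 55 libraries held between 32223034 and 49990637 read pairs, and between 16760009 and 45872357 were counted on genes per mouse. The highest total belongs to EE control mouse 9, whose 2 runs were summed and counted as 1 mouse. Granule cell markers were present throughout, with a mean of 141 CPM (counts relative to the TMM-scaled library size) for Prox1 and 262 CPM for Calb1. Markers of the choroid plexus, a tissue next to the hippocampus that secretes cerebrospinal fluid, summed to between 16.4 and 974 CPM, and the highest values were in SH control mouse 3 (974 CPM), EE SUS mouse 3 (535 CPM), SH SUS mouse 3 (360 CPM) and EE control mouse 9 (337 CPM).

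Hemoglobin carries oxygen as a tetramer of alpha and beta chains, each holding a heme group. Red cell precursors in the bone marrow make it in large amounts, and after they have expelled the nucleus the young red cells, called reticulocytes, still carry globin mRNA into the circulation until it is degraded. Alas2 encodes the red cell form of the first enzyme of heme synthesis, Slc25a37 (mitoferrin 1) brings iron into mitochondria, and Fech inserts iron into the porphyrin ring as the last step. Slc4a1 encodes band 3, the anion exchanger of the red cell membrane. Bpgm makes 2,3-bisphosphoglycerate, which lowers the oxygen affinity of hemoglobin. Tent5c encodes a poly(A) polymerase that lengthens the tails of mRNAs and is known from plasma cells and red cell precursors.

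The 4 globin genes lie in 2 clusters on the mouse genome (GRCm38). Hba-a1 (ENSMUSG00000069919) lies at chr11:32283511-32284465 and Hba-a2 (ENSMUSG00000069917) at chr11:32296489-32297298, both on the plus strand. Hbb-bs (ENSMUSG00000052305) lies at chr7:103826534-103828096 and Hbb-bt (ENSMUSG00000073940) at chr7:103812524-103813996, both on the minus strand. Alas2 (ENSMUSG00000025270) lies on the X chromosome at chrX:150547375-150570638, on the plus strand. Slc4a1 (ENSMUSG00000006574) lies at chr11:102348824-102366203, Tent5c (ENSMUSG00000044468) at chr3:100451628-100489324 and Slc25a37 (ENSMUSG00000034248) at chr14:69241848-69285112, all on the minus strand, and Bpgm (ENSMUSG00000038871) at chr6:34476207-34505613 on the plus strand. Slc25a37 overlaps the gene Gm20236 on its own strand, so reads of these 2 genes may not be separable. All members of the set are protein coding. The 250 bases before the RefSeq start of 4 of these genes are shown because they changed together in level, with capitals at each match to a GATA motif (the letters A or T before GATAA or GATAG), to CACCC or to CCAAT on either strand. GATA1 is the red cell factor that binds GATA sites, KLF1 binds CACCC boxes, and CCAAT is a common promoter element. The sequences are RefSeq's, from GRCm38.p6, and are written 5′ to 3′ on the strand of the gene.
Hba-a1, chr11:32283422-32283671, plus strand: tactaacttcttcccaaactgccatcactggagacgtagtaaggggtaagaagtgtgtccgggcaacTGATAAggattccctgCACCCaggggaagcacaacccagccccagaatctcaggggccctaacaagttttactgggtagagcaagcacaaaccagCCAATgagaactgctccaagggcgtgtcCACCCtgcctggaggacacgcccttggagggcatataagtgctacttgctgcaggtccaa
Hbb-bs, chr7:103827929-103828178, minus strand: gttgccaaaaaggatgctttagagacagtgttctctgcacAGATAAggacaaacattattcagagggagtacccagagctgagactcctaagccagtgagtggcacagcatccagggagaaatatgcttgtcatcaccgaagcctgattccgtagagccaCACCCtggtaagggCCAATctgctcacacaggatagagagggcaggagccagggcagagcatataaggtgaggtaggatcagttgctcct
Hbb-bt, chr7:103813924-103814173, minus strand: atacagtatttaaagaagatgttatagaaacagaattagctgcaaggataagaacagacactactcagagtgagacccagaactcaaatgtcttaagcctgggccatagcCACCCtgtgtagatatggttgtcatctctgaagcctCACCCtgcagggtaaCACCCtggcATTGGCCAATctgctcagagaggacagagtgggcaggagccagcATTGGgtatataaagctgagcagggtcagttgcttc
Alas2, chrX:150547167-150547416, plus strand: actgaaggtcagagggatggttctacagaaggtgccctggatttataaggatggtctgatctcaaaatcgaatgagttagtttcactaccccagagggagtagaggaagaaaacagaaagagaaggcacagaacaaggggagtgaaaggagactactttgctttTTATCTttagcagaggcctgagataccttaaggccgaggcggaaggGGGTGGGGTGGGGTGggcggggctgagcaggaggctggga

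Windows were at hand for 7 of the 10 genes. A GATA match was found in 4 of them, Hba-a1, Hba-a2, Hbb-bs and Alas2, against 26.5% of 32851 windows of the same length, and CACCC in 5, the 4 globin genes and Alas2, against 52.0%. CCAAT was found in 6 of the 7, against 33.8%, and was missing from Alas2. All 3 kinds of motif occurred together in Hba-a1, Hba-a2 and Hbb-bs, against 3.92% of all windows. The Hba-a1 and Hba-a2 windows hold almost the same sequence, slightly shifted, with the GATA match at 183 and 186 bases. These 2 are therefore not separate cases in any of these counts. The GATA match began 183 bases before the start in Hba-a1, 210 in Hbb-bs and 86 in Alas2, and the CACCC match nearest to the start began at 60, 90 and 30 bases. Tent5c and Bpgm held only CCAAT. These are matches of letters and not evidence of binding.

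The copies within each cluster are nearly identical, which limits how exactly their reads can be told apart. Over 538 aligned bases, 99.8% of the Hba-a1 and Hba-a2 transcripts were identical, and of all stretches as long as 1 read, 50.6% of those in Hba-a1 also occurred unchanged in Hba-a2. For Hbb-bs and Hbb-bt the identity was 92.7% over 626 bases, and 60.7% of the stretches in Hbb-bs also occurred in Hbb-bt. Read pairs that matched several places were not counted on any gene, so the level of each single copy is uncertain and the sum over the copies is the firmer measure of relative change.

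Hemoglobin mRNA was higher in defeated than in control mice of both housings. Summed over the 4 globin genes, the level was 76.5 ± 19.6 CPM in SH control (SD, n = 10), 160 ± 52.0 CPM in SH RES (n = 7) and 213 ± 102 CPM in SH SUS mice (n = 10). In EE it was 82.8 ± 16.1 CPM in control, 139 ± 45.8 CPM in RES and 173 ± 107 CPM in SUS mice (n = 9 each). Relative to control mice of the same housing, the mean was 2.09-fold in SH RES, 2.79-fold in SH SUS, 1.68-fold in EE RES and 2.09-fold in EE SUS mice.

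The single mice show how far the groups overlapped. SH control mice ranged from 50.3 to 103 CPM with a median of 79.3, SH RES mice from 93.5 to 244 CPM with a median of 161, and SH SUS mice from 66.1 to 403 CPM with a median of 208. Of the 17 defeated SH mice, 15 lay above every SH control mouse, which 0.0164% of single genes reached, and the exceptions were RES mouse 5 and SUS mouse 7. EE control mice ranged from 57.5 to 104 CPM with a median of 79.7, EE RES mice from 78.8 to 232 CPM with a median of 141, and EE SUS mice from 50.1 to 424 CPM with a median of 176. There, 14 of 18 defeated mice lay above every EE control mouse, which 0.0328% of single genes reached, and EE SUS mouse 7 was the lowest of all 54 mice.

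**Figure D1:**
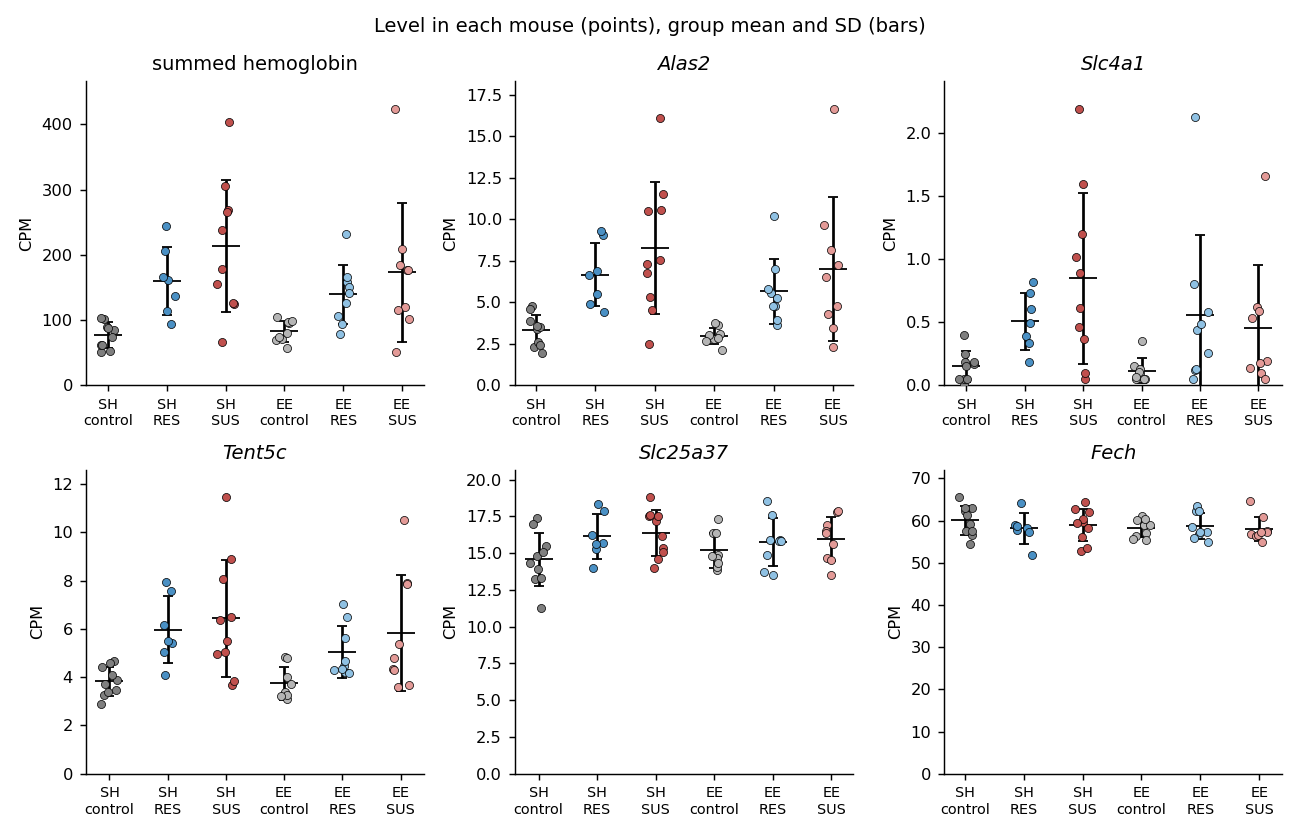
CPM of the summed globin genes, Alas2, Slc4a1, Tent5c, Slc25a37 and Fech in each of 54 mice (points) by group, with the group mean and SD (bars). Each vertical axis starts at 0, so an SD bar that reaches below 0 is cut there. Summed hemoglobin is higher and more spread in RES and SUS mice, up to 424 CPM in EE SUS mouse 3, while Fech stays between 51.8 and 65.5 CPM in every mouse.

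Ordered by mean, the groups ran from SH SUS through EE SUS, SH RES, EE RES and EE control to SH control mice. Of these neighbors, only EE RES and EE control mice differed by more than the SD of either group. The spread within groups also differed, with a coefficient of variation of 25.6% in SH control and 19.5% in EE control mice, 32.5% and 32.9% in RES mice, and 47.7% and 61.7% in SUS mice. As a share of all counts on genes, hemoglobin had means between 0.00763% in SH control and 0.0212% in SH SUS mice.

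Taken singly, Hba-a1, Hba-a2 and Hbb-bs showed the same order of group means, while for Hbb-bt SH RES mice (15.2 CPM) stood above EE SUS mice (14.5 CPM). The beta chain gene Hbb-bs had the highest level, with 47.5 ± 11.5 CPM in SH control (n = 10), 100.4 ± 33.8 in SH RES (n = 7) and 132 ± 60.6 in SH SUS mice (n = 10), against 51.5 ± 10.6, 85.1 ± 25.0 and 107 ± 62.7 CPM in EE (n = 9 each). Its log2 fold change for defeat, the mean of RES and SUS against control mice, was 1.28 (SE 0.22) in SH and 0.89 (SE 0.22) in EE.

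The second beta chain gene, Hbb-bt, showed the largest ratio of the globin genes. SH control mice ranged from 3.83 to 8.996 CPM with a median of 6.11, SH RES mice from 9.80 to 24.3 CPM with a median of 14.6, and SH SUS mice from 4.66 to 34.7 CPM with a median of 18.6. All 7 SH RES and 9 of 10 SH SUS mice lay above every SH control mouse, and at 0.00547% of all genes at least 16 defeated mice did. In EE the ranges were 4.14 to 8.87, 6.77 to 25.8 and 3.67 to 36.7 CPM, and 14 of 18 defeated mice lay above every control mouse, against 0.0328% of all genes. The log2 fold change for defeat was 1.53 (SE 0.26) in SH and 1.06 (SE 0.26) in EE.

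The alpha chain genes were similar to each other. Hba-a1 changed by a log2 value of 1.18 (SE 0.25) in SH and 0.91 (SE 0.25) in EE, and Hba-a2 by 1.19 (SE 0.24) and 0.89 (SE 0.24). Their means in SH control mice were 15.2 ± 5.11 and 7.79 ± 1.84 CPM, and those in SH SUS mice 41.4 ± 21.4 and 20.6 ± 10.4 CPM (SD, n = 10). For Hba-a2, 15 of 17 defeated SH mice and 15 of 18 defeated EE mice lay above every control mouse of their housing, against 0.0164% and 0.0219% of all genes that reached these counts. For Hba-a1, 13 and 11 did, against 0.0383% and 0.366% of all genes.

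**Figure D2:**
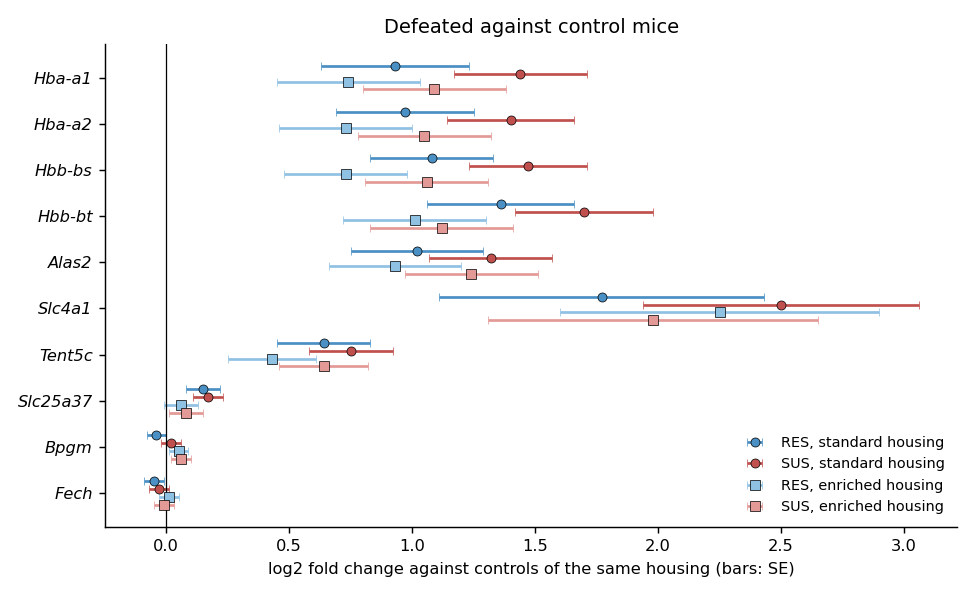
Log2 fold change of the 10 genes in RES and SUS mice against control mice of the same housing, from a fit over 54 mice (edgeR), with bars for the SE. The globin genes and Alas2 lie between 0.73 and 1.70, Slc4a1 between 1.77 and 2.50 with the widest bars, Tent5c between 0.43 and 0.75, and Bpgm and Fech within 0.06 of 0.

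Alas2, whose enzyme sets the pace of heme synthesis in red cells, moved with the globin genes. SH control mice ranged from 1.95 to 4.75 CPM with a median of 3.44, SH RES mice from 4.43 to 9.30 CPM with a median of 6.60, and SH SUS mice from 2.46 to 16.1 CPM with a median of 7.41. EE control mice ranged from 2.13 to 3.71 CPM, EE RES mice from 3.62 to 10.2 CPM and EE SUS mice from 2.30 to 16.6 CPM. Of the defeated mice, 14 of 17 in SH and 15 of 18 in EE lay above every control mouse of their housing, against 0.0328% and 0.0219% of all genes. The log2 fold change for defeat was 1.17 (SE 0.23) in SH and 1.09 (SE 0.24) in EE.

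The Alas2 values depend on the strand that was counted. Apex2, a DNA repair gene, overlaps Alas2 on the opposite strand, and at Alas2 the forward strand held 55.3% of the read pairs of both strands, against at most 0.581% at the other 9 genes. With counts that ignore strand, the log2 fold change of Alas2 was 0.58 (SE 0.14) in SH and 0.30 (SE 0.14) in EE. Strand-specific counts were used throughout.

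Slc4a1, the membrane anion exchanger, was the scarcest of the set, with 0 to 51 read pairs per mouse. Its level was 0.147 ± 0.120 CPM in SH control (n = 10), 0.506 ± 0.227 in SH RES (n = 7) and 0.847 ± 0.679 in SH SUS mice (n = 10), and no read pair was counted in 1 SH control mouse. In EE it was 0.115 ± 0.0968, 0.554 ± 0.640 and 0.450 ± 0.504 CPM in control, RES and SUS mice (n = 9 each). The log2 fold change was 2.13 (SE 0.55) in SH and 2.12 (SE 0.60) in EE, the largest of the set but with the largest SE, and 11 of 17 and 9 of 18 defeated mice lay above every control mouse, against 0.109% and 1.21% of all genes.

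Tent5c, the poly(A) polymerase, changed less. Its level was 3.84 ± 0.598 CPM in SH control, 5.97 ± 1.38 in SH RES and 6.43 ± 2.43 in SH SUS mice, and 3.74 ± 0.670, 5.03 ± 1.08 and 5.82 ± 2.40 CPM in EE. The log2 fold change for defeat was 0.69 (SE 0.16) in SH and 0.54 (SE 0.16) in EE. In SH, 14 of 17 defeated mice lay above every control mouse, against 0.0328% of all genes, and in EE 7 of 18 did, against 4.25%.

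Slc25a37, Bpgm and Fech differed little between groups. Slc25a37, the mitochondrial iron importer, had 14.6 ± 1.81 CPM in SH control (n = 10) and 16.4 ± 1.57 CPM in SH SUS mice (n = 10), and its log2 fold change for defeat was 0.16 (SE 0.06) in SH and 0.07 (SE 0.06) in EE. Above every control mouse lay 6 of 17 defeated SH mice and 4 of 18 defeated EE mice, against 2.9% and 18.5% of all genes. Bpgm, the 2,3-bisphosphoglycerate enzyme, lay between 47.3 and 58.4 CPM and Fech, the last heme enzyme, between 51.8 and 65.5 CPM in all 54 mice. Their log2 fold changes in SH were -0.01 (SE 0.03) and -0.04 (SE 0.03), and no defeated SH mouse lay above the highest control mouse for either gene. In EE, 2 of 18 defeated mice did for Bpgm, against 44.1% of all genes, and 4 did for Fech, against 18.5%.

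Compared per kilobase of exon, the 3 genes that differed little were not the scarce ones. In SH control mice, Hbb-bs had 61.9 CPM per kb, Hba-a1 18.8, Bpgm 14.9, Hba-a2 11.7, Hbb-bt 8.42, Fech 4.34, Slc25a37 2.42, Alas2 1.37, Tent5c 0.630 and Slc4a1 0.0301 CPM per kb. The SD of Bpgm was 0.917 CPM per kb and that of Hba-a1 6.29 CPM per kb, so as measured these neighbors did not differ beyond their spread. Globin values per kb are low estimates, since pairs that matched several places were not counted while the whole exon length was used. Fech was divided by 13838 bases of annotated exon. The order of the genes per kb is therefore uncertain. In SH SUS mice Hbb-bs reached 172 and Hba-a1 51.0 CPM per kb, while Bpgm had 15.1 and Fech 4.26 CPM per kb.

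Among all 18283 genes, 4 passed an adjusted p of 0.05 for defeat in SH by edgeR (quasi-likelihood, adjusted after Benjamini and Hochberg), which is 0.0219%, and all 4, Alas2, Hba-a2 and both beta chain genes, belong to the set and were higher in defeated mice. With each SH mouse left out in turn, between 2 and 6 genes passed, and Hbb-bs and Hbb-bt were among them in 27 of 27 fits. For SUS against control mice in SH, 6 genes passed (0.0328%), and the 4 globin genes and Alas2 were 5 of them. None passed for RES against control mice in SH, where 641 had an unadjusted p under 0.05, or for defeat in EE, where 1819 had, while DESeq2 called 2 genes for defeat in EE and 1 of them was Alas2. The set was chosen from these contrasts, so nothing is read from these counts.

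By the study's criterion, an unadjusted limma p under 0.05 with a fold change above 1.3, 94 genes (0.514%) were higher after defeat in SH and 147 (0.804%) in EE. The same 7 genes of the set were among those higher after defeat in both housings, namely the 4 globin genes, Alas2, Slc4a1 and Tent5c. The defeat lists of SH and EE rest on different control mice. The set was chosen with its levels in both housings known, so nothing is read from this recurrence or from the overlap counts that follow. Counted by overlap alone, 3 genes (0.0164%) had at least 15 of 17 defeated SH mice above every SH control mouse, all of the set, and 6 genes (0.0328%) had at least 14 of 18 defeated EE mice above every EE control mouse, 4 of the set with Rcan1 and Sept6.

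Whether EE changed the response to defeat was asked as the difference between the changes in EE and SH. For the globin genes this difference on the log2 scale was -0.27 (SE 0.35) for Hba-a1, -0.29 (SE 0.33) for Hba-a2, -0.38 (SE 0.30) for Hbb-bs and -0.47 (SE 0.36) for Hbb-bt, and for Alas2 it was -0.08 (SE 0.33). All of these were under 2 SE, so a smaller response in EE was not separated from the spread between mice. Across all genes none passed the adjusted p for this difference in edgeR, with 1183 at an unadjusted p under 0.05, nor in DESeq2 or limma.

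SUS and RES mice of the same housing overlapped. In SH the log2 difference of SUS over RES was 0.34 to 0.51 for the globin genes with SE of 0.25 to 0.29, and 0.30 (SE 0.26) for Alas2. In EE it was 0.11 to 0.36 with SE of 0.24 to 0.28, and 0.31 (SE 0.25) for Alas2. In control mice, where 1 gene outside the set (0.00547%) passed in edgeR, EE and SH differed by a log2 value of 0.05 to 0.17 for the globin genes with SE of 0.24 to 0.30.

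Ratios within a mouse compare the globin genes with each other at any amount of red cell RNA. Alpha chain genes made up 29.1 ± 2.07% of the globin counts over all 54 mice, and the log2 ratio of alpha to beta was -1.23 ± 0.13 in SH control, -1.38 ± 0.091 in SH RES and -1.31 ± 0.11 in SH SUS mice (SD, n = 10, 7 and 10). In a two-sided exact permutation test over 6 pairs of groups, the smallest p was 0.0196 for SH RES against SH control mice, or 0.118 after Benjamini-Hochberg adjustment, so no pair passed. Without SH control mouse 5 the adjusted p of that pair was 0.0157 in the same test. This was the only 1 of the 17 repeats with a mouse of that pair left out in which it passed. In EE the log2 ratios were -1.24 ± 0.16, -1.31 ± 0.16 and -1.29 ± 0.19 in control, RES and SUS mice (n = 9 each).

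The split within each cluster was also recorded, without a test. Hba-a1 made up 65.3 ± 2.69% of the alpha counts over all 54 mice. Hbb-bt made up 11.1 ± 1.16% of the beta counts in SH control, 13.2 ± 0.667% in SH RES and 12.4 ± 1.39% in SH SUS mice, and 11.5 ± 1.62%, 13.4 ± 1.96% and 11.6 ± 0.828% in the EE groups. The RES mice had the highest mean share in both housings, but the ranges overlapped in each, with 8.84 to 12.8% in SH control and 12.4 to 14.3% in SH RES mice.

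Within groups, mice that were high for 1 globin gene were high for the others. Over 54 mice, with the group means removed, Pearson's r of log2 CPM lay between 0.933 and 0.970 for the 6 pairs of globin genes, and between 0.920 and 0.956 for Alas2 with each of them. It was 0.746 to 0.803 for Slc4a1 and 0.772 to 0.792 for Tent5c, and 0.416 to 0.457 for Bpgm, 0.288 to 0.365 for Slc25a37 and -0.0221 to 0.0761 for Fech. These points share libraries and their depth, and the near-identical copies share read sequence.

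**Figure D3:**
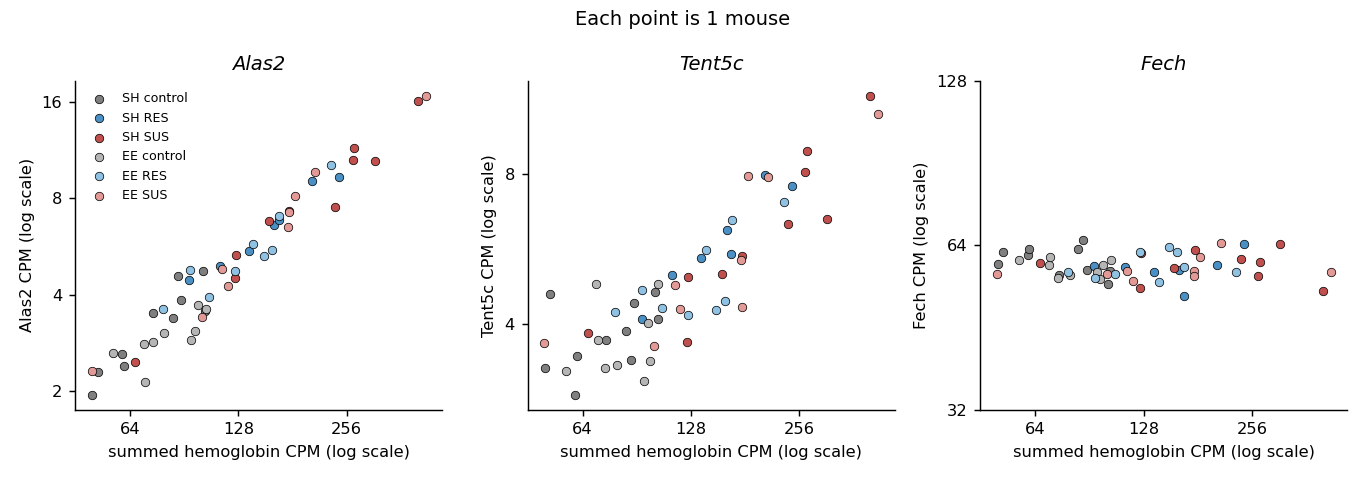
CPM of Alas2, Tent5c and Fech against the summed CPM of the 4 globin genes in each of 54 mice, with both axes on a log scale and colors for the 6 groups. Alas2 follows hemoglobin across the range from 50.1 to 424 CPM, Tent5c follows it less closely, and Fech shows no such course.

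By the same measure, genes outside the set that were most like its mean z-score within groups included Ube2l6 (r = 0.678), Rsad2 (0.632), Apol11b (0.569), Kdr (0.543), Paqr6 (0.541), Sec23b (0.540), Tmem51 (0.533) and Gm24514 (0.524), over 54 mice. Ube2l6, a conjugating enzyme of the ISG15 and ubiquitin systems, had a log2 change of 0.35 (SE 0.09) in SH and 0.29 (SE 0.09) in EE, and did not pass over all genes, with an edgeR adjusted p of 0.979 and 0.356.

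No other gene of the heme pathway passed. Of the 7 other enzymes of heme synthesis all were tested, none passed in either direction in SH or EE, and their median log2 change was 0.01 in SH and -0.01 in EE, beside 0 for all genes. Alas1, the form of the first enzyme that other tissues use, had a log2 change of 0.02 (SE 0.03) in SH and 0.03 (SE 0.03) in EE, Cpox -0.01 (SE 0.03) and -0.02 (SE 0.04), and Urod -0.03 (SE 0.04) and 0.05 (SE 0.04). Among 15 genes of heme and iron transport, none passed, with a median of -0.01 in both housings. Slc48a1, a heme transporter, had -0.02 (SE 0.04) and -0.01 (SE 0.04), and the transferrin receptor Tfrc 0.10 (SE 0.06) in EE.

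Genes of the red cell membrane and of maturation were mixed. Of 16 membrane and skeleton genes 12 were tested and none passed, with a median of 0 in SH and -0.03 in EE, and the most abundant, Sptb, Add2 and Dmtn, which the brain also expresses, had log2 changes within 0.04 of 0. Of 14 maturation genes with an identifier 10 were tested and none passed, with medians of 0 and 0.03. Prdx2, an abundant peroxidase among these, had -0.02 (SE 0.03) in SH. Ube2l6 had the smallest adjusted p of any list gene in both housings, given above.

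Genes known from nucleated red cell precursors had few read pairs. Of 9 red cell transcription factors 5 were tested and none passed, with medians of 0.03 and 0. Named after their values were seen, Gata1 had a read pair in 2 of 54 mice with at most 1 each, Gfi1b in 1 mouse, Hemgn in 8 mice and Rhag in 4 mice, while Klf1 had 1 to 12 read pairs in 53 mice. The embryonic globin genes Hbb-bh1, Hbb-bh2 and Hba-x had 0 read pairs in all 54 mice, and Hbb-y at most 2. Of the globins used outside red cells, Cygb changed by 0.01 (SE 0.07) and Ngb by 0.08 (SE 0.13) in SH.

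Genes that handle released hemoglobin, and genes that respond to low oxygen, did not pass either. Of 10 clearance genes 8 were tested, with median log2 changes of 0.01 in SH and 0.03 in EE, and the ferritin genes Fth1 and Ftl1, which store iron, had 0.06 (SE 0.04) and 0.03 (SE 0.03) in EE. Of 11 hypoxia genes 10 were tested, with medians of 0.02 and 0.10. Ldha, a glycolytic enzyme, changed by 0.08 (SE 0.05) in both housings, and Bnip3 by 0.12 (SE 0.04) in EE with an edgeR adjusted p of 0.368.

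**Figure D4:**
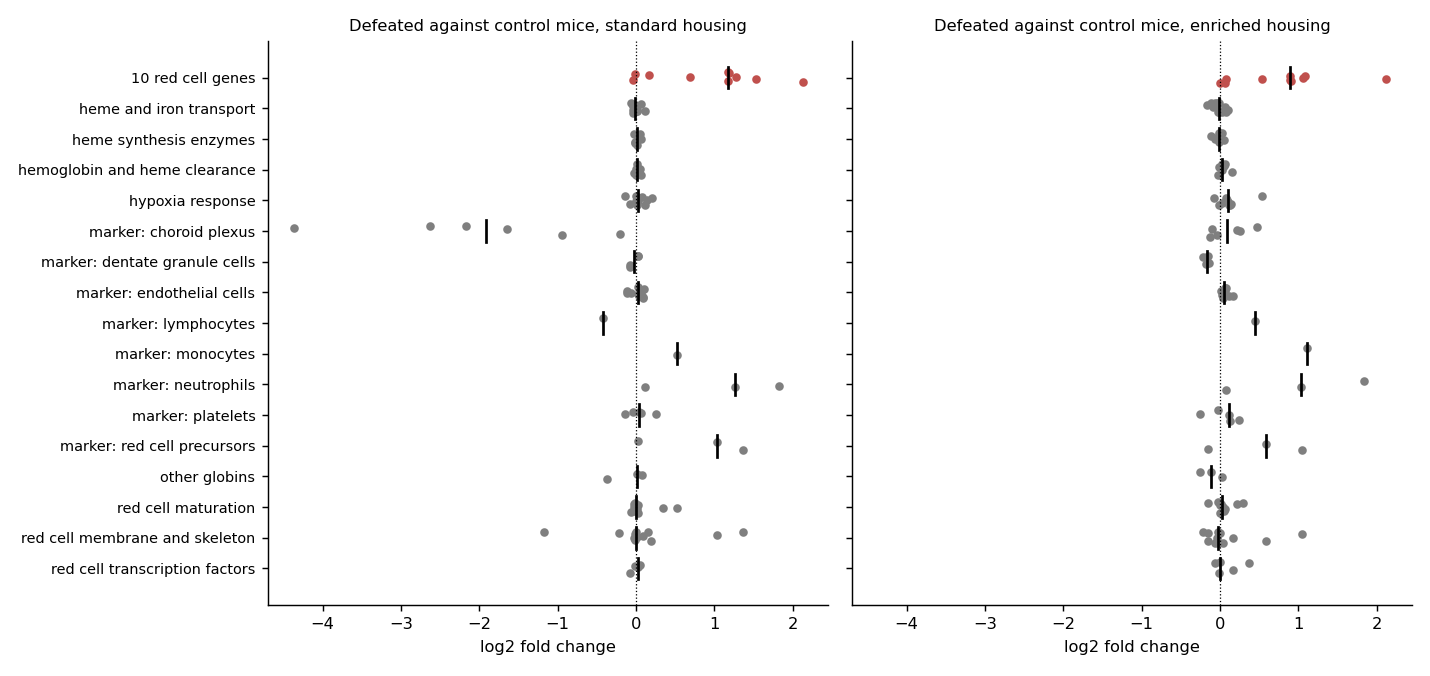
Log2 fold change for defeat of the 10 genes (red) and of the tested genes of 8 pathway lists and 8 marker lists (gray) in SH and EE, with a line at each list's median. The red cell genes have medians of 1.17 in SH and 0.89 in EE, the heme synthesis enzymes lie close to 0, and the choroid plexus markers have a median of -1.91 in SH and 0.08 in EE.

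Markers of other blood and vessel cells were read beside these changes. None of the 8 lists held a gene that passed in SH or EE. The 10 endothelial markers summed to between 178 and 270 CPM over all mice, with a median log2 change of 0.03 in SH and 0.06 in EE. Platelet markers (5 of 8 tested) had medians of 0.04 and 0.11, lymphocyte markers (1 of 8 tested) -0.42 and 0.44, and monocyte markers (1 of 5 tested) 0.53 and 1.11. Dentate granule cell markers had -0.03 and -0.16.

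Neutrophil markers, of which 3 of 12 were tested, had median log2 changes of 1.27 in SH and 1.03 in EE. Each of the 12 had a read pair in some mice, with Elane in 4 and Camp in 6 of 54. Csf3r alone had a mean of 3.73 CPM in SH control mice, where the 12 summed to a mean of 4.44 CPM. In EE SUS mice it had 4.81 of 13.8 CPM. The summed level of the 12 was 3.29 to 8.11 CPM in SH control, 4.61 to 6.36 in SH RES and 3.74 to 9.20 in SH SUS mice. In the EE groups it was 4.50 to 9.31, 4.89 to 13.1 and 4.67 to 65.6 CPM. The highest value, 65.6 CPM, belonged to EE SUS mouse 7, which had the lowest hemoglobin level of all mice, and the highest hemoglobin level, in EE SUS mouse 3, stood beside 4.84 CPM. Within groups, r between the neutrophil score and the mean z-score of the set was 0.0419, and 0.350 without the 2 mice farthest from the median.

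Red cell precursor markers, of which 3 of the 9 with an identifier were tested, had medians of 1.04 and 0.58 and an r of 0.639 with the set. Their summed level, most of which was Epor, was 4.23 to 7.33 CPM in SH control, 5.48 to 7.27 in SH RES and 4.53 to 9.09 in SH SUS mice, and 4.17 to 7.57, 4.17 to 6.50 and 4.75 to 7.30 CPM in the EE groups. For endothelial, platelet and granule cell markers, r with the set was 0.250, -0.127 and -0.320. All of these r are over 54 mice and describe libraries that share depth and dissection.

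Choroid plexus markers differed most between single mice. Their summed level was 18.9 to 974 CPM in SH control with a median of 22.4, 16.4 to 23.6 in SH RES and 19.9 to 360 in SH SUS mice with a median of 23.0, and r with the set was 0.232, or 0.0832 without the 2 mice farthest from the median. With the choroid plexus score as a covariate, the log2 change of Alas2 for defeat was 1.21 (SE 0.23) in SH and 1.06 (SE 0.24) in EE. The part of neutrophil, monocyte and precursor markers in the hemoglobin result was not tested.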

How the data were processed

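Per the labels and the methods, the authors aligned stranded paired-end reads to GRCm38 (mm10) with STAR using Ensembl annotation, and the labels also name Picard. The deposited tables hold raw counts of read pairs per gene laid out as STAR writes them, while featureCounts is the counter given in the methods. The reverse-strand column was used. Rows that name no gene (medians of 15.9% unmapped, 10.0% multimapping, 23.7% without a feature and 0.930% ambiguous) were left out.

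Samples were grouped by their titles. Counts were fitted over 18283 genes in 54 mice with the quasi-likelihood test of edgeR 4.0.16 in R 4.3.3 (TMM, filterByExpr, Benjamini-Hochberg adjustment over all genes). limma 3.58.1 and DESeq2 1.42.0, RLE size factors, other filters, unstranded counts, each housing alone, a choroid plexus covariate, a replicate block and left-out mice were alternatives. CPM is scaled by TMM, and log2 CPM used a prior count of 2. On simulated counts for defeat in SH, 99% of 200 genes changed by a log2 value of 1 were recovered among 18173 genes, with 10 others called. The 200 were drawn from genes with a mean above 1 CPM. With so many changed genes the adjusted threshold is easier to pass than in the data, where 4 genes passed. Hba-a1, with a log2 change of 1.18 in SH, was not among those 4. The 99% is therefore a check of the fit and not its sensitivity in these data.

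The genes and lists were chosen with earlier results of these data known. Of each list, the genes named are those that passed (at most 4) or otherwise up to 3 of high CPM, with the 10 genes most like the set, and some of these genes are not reported here. Mice were not treated as paired by the numbers in their labels. Of 126 same-numbered pairs, 60 had an r over 0.1 and the lowest was -0.548. The median r was 0.0806 for same-numbered pairs and -0.00761 for pairs with other numbers. SH control, EE SUS and SH SUS mice 3 ranked 1, 2 and 3 for choroid plexus markers. Whether mice of the same number shared a step of the work was not tested. Correlations are described without a p. Ratios were computed from counts. Other tools were Python 3.11.15, pandas 2.3.3, SciPy 1.17.1, Biopython 1.88 and matplotlib 3.10.9. Only read counting limits are covered by the depth given, and p-values measure the spread between these mice.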

Additional observations from a re-analysis of the deposited data

Results flagged for a closer look

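For 10 genes and the hemoglobin sum in 6 groups, 66 sets of mice were examined for a mouse far from the others by Dixon's criterion, the gap to the nearest mouse divided by the range of the group. This criterion picks about 1 in 20 groups by chance, and 9 were picked. EE SUS mouse 3 was the highest of its 9 mice with a ratio of 0.630 for Hba-a1 (89.5 against 39.2 CPM), 0.599 for Hba-a2, 0.534 for Hbb-bs, 0.551 for Hbb-bt, 0.574 for summed hemoglobin (424 against 209 CPM) and 0.643 for Slc4a1. EE RES mouse 6 was the highest of its group with 0.499 for Hbb-bt (25.8 against 16.3 CPM) and 0.639 for Slc4a1 (2.13 against 0.799 CPM). EE control mouse 5 was the highest for Slc4a1 with 0.663, at 8 read pairs. The limit for 9 mice is 0.493. The globin genes vary together, so the values of EE SUS mouse 3 are not separate observations. None of the 9 was in SH.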

How the results depend on the processing

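For defeat in SH, 4 genes passed the adjusted p in edgeR, 1 with limma-voom and 6 with DESeq2, which added Hba-a1 and Tent5c. With single SH mice left out the number ran from 2 to 6, and it fell to 2 without SH control mouse 1, 4, 5, 8 or 9, SH RES mouse 1 or 3, or SH SUS mouse 1, 2 or 9. DESeq2 called 2 genes for defeat in EE, against 0. For EE against SH in control mice, unstranded counts, DESeq2 and the choroid plexus covariate each gave 2 genes, against 1. The replicate block gave 5 genes for defeat in SH and changed no other count by over 1.5 times. What the numbers of the mice stand for is not given, and 7 of 54 mice resembled most a mouse of their own number. Summed hemoglobin changed by a mean log2 value of 1.20 in SH and 0.79 in EE, a difference of -0.41. With mice left out these ran from 1.14 to 1.28, from 0.69 to 0.89 and from -0.51 to -0.31. Without the highest and lowest SUS mice, a choice made after seeing the data, they were 1.23 in SH and 0.79 in EE. The log2 difference in the alpha to beta ratio ran, with mice left out, from -0.18 to -0.12 for SH RES and from -0.11 to -0.060 for SH SUS against control mice, from 0.040 to 0.083 for SH SUS against RES, from -0.10 to -0.038 for EE RES and from -0.076 to -0.0060 for EE SUS against control mice, and from -0.0083 to 0.066 for EE SUS against RES, which turned without EE RES or EE SUS mouse 4. The causes were not tested. Of 320 repeats, 302 counted as unchanged. For numbers of genes this meant equal or within 1.5 times. For summed hemoglobin it meant the same direction and within 1 pooled SD, a log2 value of 0.583. For ratios it meant the same direction and side of the threshold. Depth limits Slc4a1 most.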

Other observations

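The lowest and highest hemoglobin levels occurred in the same group. EE SUS mouse 7, with 50.1 CPM of summed hemoglobin, had the highest summed level of neutrophil markers (65.6 CPM) and of monocyte markers (11.6 CPM) of all 54 mice, and EE SUS mouse 3, with 424 CPM of hemoglobin, ranked 38 of 54 for neutrophil and 47 of 54 for monocyte markers, but 2 of 54 for choroid plexus markers (535 CPM) and 4 of 54 for red cell precursor markers. The next mouse for neutrophil markers was EE SUS mouse 4 with 18.5 CPM. S100a8 and Lcn2, genes of neutrophil granules and cytosol, reached at most 226 and 478 read pairs in any mouse.

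The 2 runs of EE control mouse 9, matched by their titles, show the spread between runs of that mouse alone. Whether they share a library is not given, and spread from dissection or blood left in the tissue is not covered. Summed hemoglobin was 57.8 CPM in the first run and 55.5 CPM in the second without TMM scaling, from 1285 and 1313 read pairs, while Hba-a2 was 7.02 and 4.69 CPM and Slc4a1 had 0 and 3 read pairs. Between the 9 EE control mice the SD of summed hemoglobin was 16.1 CPM.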
